A study of Schizosaccharomyces pombe with 4 samples.

Results

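Centromere 1 of fission yeast (Schizosaccharomyces pombe) and the chromosome on both sides of it were examined for incorporated bromodeoxyuridine (BrdU), which cells build into new DNA in place of thymidine. The region was defined by position, as 3650000 to 3899999 of chromosome 1 in the numbering of the array design. It was chosen with earlier results of these data known. It held 825 of the 41551 probes of a tiling array with 60-base probes 300 bp apart. A core of 50 kb, positions 3750000 to 3799999, held 159 of them, and the 100 kb flanks on either side held 333 each. No sequence is printed and no gene is named, because the positions of the array design could not be matched to the reference genome, so the core was not placed on annotated centromere repeats.

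Each group consisted of 2 arrays, 1 from a first and 1 from a second series. The background of all cells was cdc25-22, which blocks entry into mitosis at high temperature through a heat-labile phosphatase, and all carried Pnmt1-TK, a thymidine kinase module, and Padh1-hENT, a nucleoside transporter module, which together let cells use BrdU from the medium. The groups differed in genotype, being labelled wt (wild type) or fft3Δ, a deletion of the gene for Fft3, a chromatin remodeller of the SNF2 family. Cultures of either genotype were blocked at 37 °C, then cooled to 26 °C with 10 mM hydroxyurea and 200 µM BrdU added, and harvested at 120 min. Every array paired immunoprecipitated DNA (IP) in Cy5 with input DNA from whole-cell extract in Cy3, never with swapped dyes, and the value used throughout is the log2 ratio of IP over input, centred on each array's median. Array data alone did not show the deletion, so those arrays are called "labelled fft3Δ". Nothing in the labels ties a series to a culture of its own, so p-values cover only the spread between these arrays, which may be technical.

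A fission yeast centromere has a central domain that holds the centromeric histone and the kinetochore, and on both sides of it repeats that are packed in heterochromatin. Although heterochromatin replicates late in many organisms, the centromeres of this yeast are known to fire their origins early in S phase. Hydroxyurea lowers the deoxynucleotide supply and stalls forks, so BrdU taken up in its presence lies mostly near origins that fired early.

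The input set limits on what could be read here. All spots of the region were unsaturated. Over all chromosome probes the log2 input had an SD of 1.03 and 1.04 on the series 1 arrays and of 0.96 on labelled fft3Δ array 2, but of 0.50 on wild-type array 2, which thus stood apart. That array also had 26 spots of the region left out for non-uniformity, against 0 on each of the others. The main values of the core, its centre and the windows that changed most are therefore also given without it.

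The core carried more BrdU than its flanks on all 4 arrays. Its mean ratio in series 1 was 0.63 in wild type and 0.81 in labelled fft3Δ, and in series 2 it was 0.51 in wild type and 0.63 in labelled fft3Δ. Values for 4 arrays are given in this order below. The flanks together gave 0.38, 0.39, 0.42 and 0.37. The core was the higher of the pair each time, by 0.25, 0.42, 0.09 and 0.26, and the flanks varied far less between arrays than the core did. All of these levels lay above 0, the median of an array.

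That excess was tested against 0, together with 237 bins of 50 kb in all on the 3 chromosomes, each minus the 100 kb on either side. The bin of the core exceeded its surroundings by 0.24 ± 0.035 (SE, 4 arrays; adjusted p = 0.000248, limma with Benjamini-Hochberg adjustment). Of all bins, 46.8% were higher than their surroundings by the same test and 38.8% were lower, so such a call was common along these chromosomes. The core ranked 61 from the highest. Without wild-type array 2 the bin exceeded its surroundings by 0.28 (adjusted p = 0.0127, limma). Under loess normalization within each array the excess was 0.05 and no longer passed (adjusted p = 0.31), with normexp background correction the core exceeded its flanks by 0.15, and without the probes whose names hold an f or an m, described next, by 0.09.

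**Figure D1:**
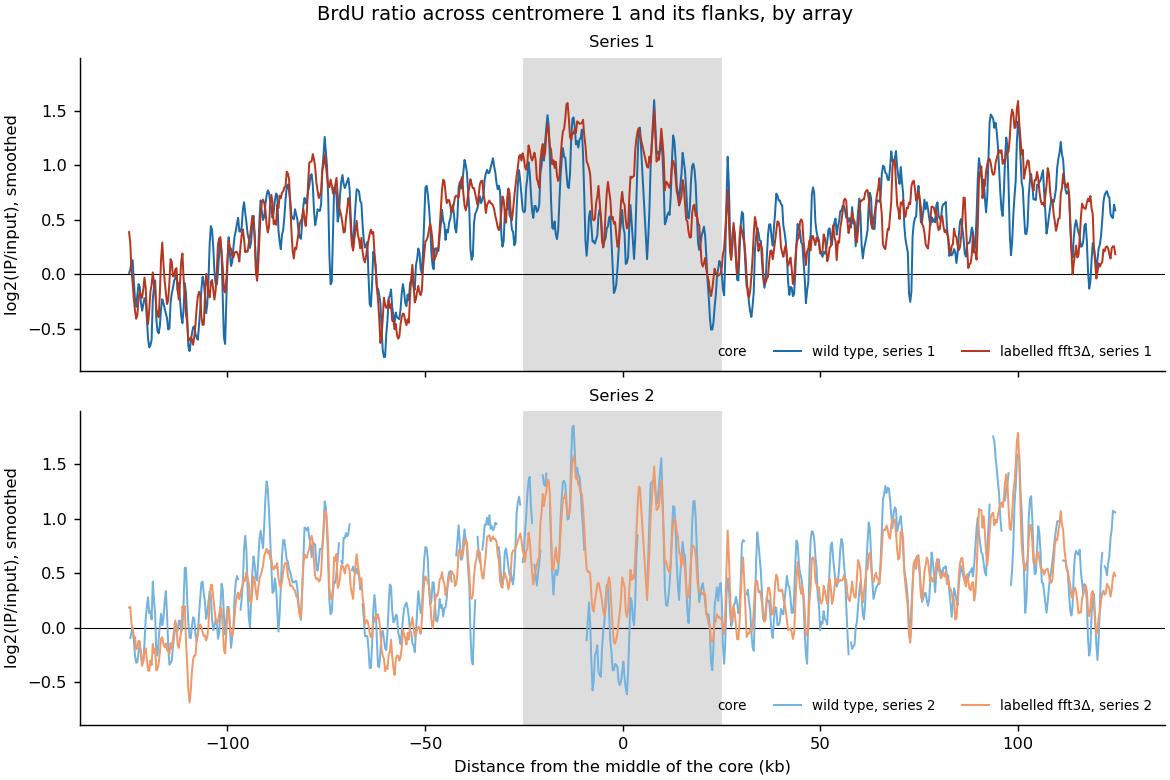
Log2 ratio of IP over input, averaged over probes within 500 bp, against distance from the middle of the core, with 1 panel per series and 1 line per array (gaps mark spots left out, the core is shaded). The core is high with a dip near its middle, the left flank has a trough about 60 kb from the middle, and the right flank is highest about 100 kb from it.

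Within the core, BrdU was concentrated in 2 arms around a lower centre. Probe names carry letter suffixes whose meaning is not given in the files. Of the core's probes, 38 had a suffix with m and 59 one with f, while the flanks held 0 with m and 5 with f. The arms run here from the outermost m probe to the longest interval without one, and that interval is called the centre. These bounds were drawn from names alone, but after values had been seen.

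The left arm (3754500 to 3766200, 40 probes) had ratios of 0.94, 1.23, 1.05 and 1.06. The right arm (3777600 to 3785100, 18 probes, with a gap of 1800 bp in the tiling) had 0.88, 1.16, 0.92 and 0.96. The centre between them (3766500 to 3777300, 37 probes) had 0.35, 0.60, -0.21 and 0.25. The right arm differed from the left by -0.06 to -0.14, and the centre lay below both on each array, at -0.58, -0.61, -1.22 and -0.78 relative to the pooled arms. Without wild-type array 2 the centre averaged 0.39 and lay at -0.63 relative to the arms. The shares of probes say the same: in the left arm 94.4% to 100% had a ratio above 0 and 60% to 82.5% a ratio above 1, whereas in the centre 0% to 8.11% exceeded 1, and only 27.0% exceeded 0 on wild-type array 2 against 81.1% to 100% on the others.

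The edges of the core lay below the left arm on each array. The left edge of the core, 15 probes from 3750000 to 3754200, had ratios of 0.69, 1.01, 0.84 and 0.63, and its signal ran on into the left flank. The right edge, 49 probes from 3785400 to 3799800, had 0.48, 0.44, 0.43 and 0.44. It fell steeply along its length, from a 4-array mean of 0.77 in the 5 kb from 3785000 to 0.05 in the 5 kb from 3795000.

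The DNA that the ratio divides by followed the same stretches. The log2 input of the left arm was 2.36, 2.22, 0.94 and 1.94 above the array median, and that of the right arm 2.05, 1.97, 0.81 and 1.65. In the centre it was -0.98, -1.02, 0.04 and -0.73. The arms were therefore the brightest stretch in both channels, and the Cy5 signal of the centre relative to the arms was -3.82, -3.77, -2.07 and -3.36. All 58 arm probes had an f or an m in their suffix, as did 33 of the 37 centre probes, so no arm level could be had without them. The 312 m probes on the chromosomes outside the 3 centromere cores also had a high input, 2.32, 2.29, 1.03 and 2.03, with ratios of 0.40, 0.42, 0.81 and 0.44. The 921 f probes outside the cores had ratios of -0.37, -0.23, -0.33 and -0.27, so m probes exceeded f probes there by 0.77, 0.65, 1.14 and 0.72. In the arms that gap was smaller on each array. The 38 m probes there had 1.02, 1.23, 1.18 and 1.12, and the 20 f probes 0.73, 1.16, 0.69 and 0.87. The lower centre goes with a change in the kind of probe, since m probes made up 38 of the 58 arm probes and 0 of the centre probes. Within f probes alone, the 33 in the centre had 0.36, 0.64, -0.20 and 0.27. This puts the f probes of the centre at -0.37, -0.52, -0.89 and -0.60 relative to those of the arms. The input of the same f probes differed between centre and arms by -2.31, -2.17, -0.61 and -1.81. Whether m probes read sequence present in several copies was not tested.

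Against neighbouring bins, the centre was among the lowest of its size. The chromosomes were cut into 1121 bins of the centre's 11.1 kb, each minus its neighbours, a test added after values were seen. The cuts were aligned with the bounds of the centre, while other bins fell where the grid put them. The rank and p-values below thus favour the centre. The centre differed from the neighbouring bins by -0.71 ± 0.07 (SE, 4 arrays; adjusted p = 3.6e-09, limma), with -0.51, -0.53, -1.12 and -0.68 on the single arrays. It ranked 21 from the lowest, where 31.5% of bins were called lower and 35.3% higher. Without wild-type array 2 the difference was -0.56 (adjusted p = 5.9e-22, limma) and the rank 54. Under loess, which removes the trend of ratio with brightness on each array, the difference was -0.002 (adjusted p = 0.97), and the centre relative to the pooled arms was at 0.26, 0.20, -0.43 and 0.05.

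**Figure D2:**
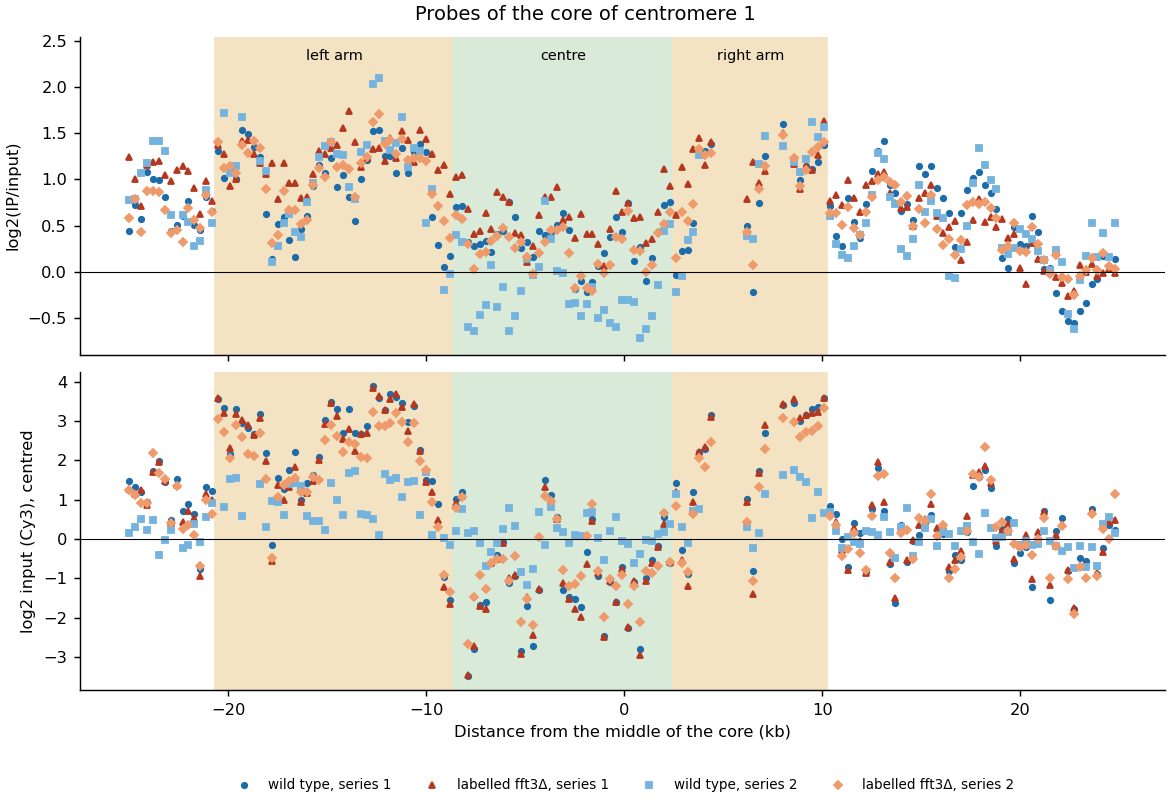
Each point is a probe of the core on 1 array, placed by distance from the middle of the core, with the log2 ratio of IP over input in the upper panel and the log2 input signal in the lower one. The arms are high in both panels, the centre is low in both on 3 arrays, and on wild-type array 2 the input spans a narrower range while the ratio of the centre falls below 0.

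The left flank was uneven, with a block of high BrdU, a trough and a rise into the core. In steps of 10 kb, the 4-array mean ratio was -0.15 at 3650000 and -0.16 at 3660000, the outer end. It reached 0.52, 0.64 and 0.53 in the 3 steps from 3680000 to 3709999. It was -0.15 in the step from 3710000 on, and -0.23, -0.20, -0.02 and -0.14 there on the 4 arrays, so the trough lay below the array median on each. From there it climbed to 0.18, 0.59 and 0.71 in the 3 steps next to the core. The highest 2 kb windows of this flank started at 3748000, 3698000 and 3740000 with means of 0.90, 0.85 and 0.83, and the lowest at 3714000, 3666000 and 3664000 with -0.32, -0.28 and -0.27.

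The right flank was higher and had no comparable trough. It averaged 0.50, 0.51, 0.51 and 0.48 on the 4 arrays, against 0.26, 0.28, 0.34 and 0.26 for the left flank, a difference of 0.17 to 0.24. Among 124 stretches of 100 kb over the 3 chromosomes it ranked 5 from the highest by its 4-array mean, and between 4 and 7 on single arrays. The left flank ranked 28 of 123 on its own tiling. Every 10 kb step of the right flank had a mean above 0, from 0.23 at 3800000 and 3810000 up to 0.97 at 3870000. Its highest windows started at 3874000, 3868000 and 3870000 with means of 1.35, 1.27 and 1.03, all within one broad rise, and its lowest at 3806000, 3894000 and 3820000 with -0.05, 0.13 and 0.13.

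The limits of the region cut through sloping signal. The window just inside the right limit had a mean of 0.53 and the one just outside it 0.29, a fall on each of the 4 arrays. At the left limit the windows just inside and just outside had -0.06 and 0.35. At the borders of the core, the ratio ran on from 0.90 in the last window of the left flank to 0.94 in the first of the core, while on the right it was 0.07 in the last window of the core and 0.33 in the first of the flank.

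In the core the highest 2 kb windows all lay in the arms. They started at 3762000, 3782000 and 3760000, with 4-array means of 1.43, 1.23 and 1.16. The 3 lowest started at 3796000, 3772000 and 3798000, with -0.13, 0.003 and 0.07, of which the one at 3772000 lies in the centre and the others in the right edge.

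BrdU peaks mark places where new DNA accumulated and are read in such maps as sites of initiation. A peak was the highest point within 5 kb on each side of the 4-array mean, smoothed over 500 bp each way and above a threshold of 0.74, which is 1 background SD over the median. By this rule 12 of 301 peaks lay in the region, with 5 in the left flank, 3 in the core and 4 in the right flank. That is 4.8 per 100 kb, against 2.40 per 100 kb over the 3 chromosomes.

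The 3 core peaks stood in the arms, with none in the centre. The peak at 3762600 had a mean ratio within 1 kb of 1.27, 1.27, 1.56 and 1.41 on the 4 arrays. The peak at 3756000 gave 1.19, 1.19, 1.24 and 1.22, and the one at 3783000, with 4 probes, 1.27, 1.16, 1.28 and 1.20. Labelled fft3Δ minus wild type was -0.07, -0.01 and -0.09 at these 3 peaks. By smoothed height these peaks ranked 7, 16 and 10 of all 301. They rest on m probes, which made up 7, 7 and 3 of their 7, 7 and 4 probes.

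The tallest peak of the region was in the right flank, at 3875100, and ranked 5 of all peaks with a smoothed height of 1.59. Within 1 kb it had ratios of 1.09, 1.38, 1.37 and 1.41 over 7 probes, none with an m. The log2 input of these probes was also high, at 1.41, 1.21, 0.06 and 1.18. Over the probes of the right flank, ratio and input correlated with Pearson r of 0.28, 0.24, 0.04 and 0.45. The part of the input in the height of this peak was not tested. The peak lay 100 kb from the middle of the core. The other right-flank peaks were lower: 3843900 had 1.04, 0.84, 0.96 and 0.87, 3885900 had 1.07, 0.69, 0.85 and 0.89, and 3801600, next to the core, had 0.41, 0.39, 0.08 and 0.35.

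In the left flank the highest peak was at 3699600, with 0.99, 0.95, 0.87 and 0.86 on the 4 arrays. The other 4, at 3684900, 3705600, 3735000 and 3741300, had 4-array means of 0.64 to 0.85. At 3684900 wild-type array 2 alone stood out, with 1.07 against 0.55 to 0.69. With a threshold of 2 background SDs (1.47), 3 peaks of the region were left among 12 in all, those at 3762600, 3783000 and 3875100.

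**Figure D3:**
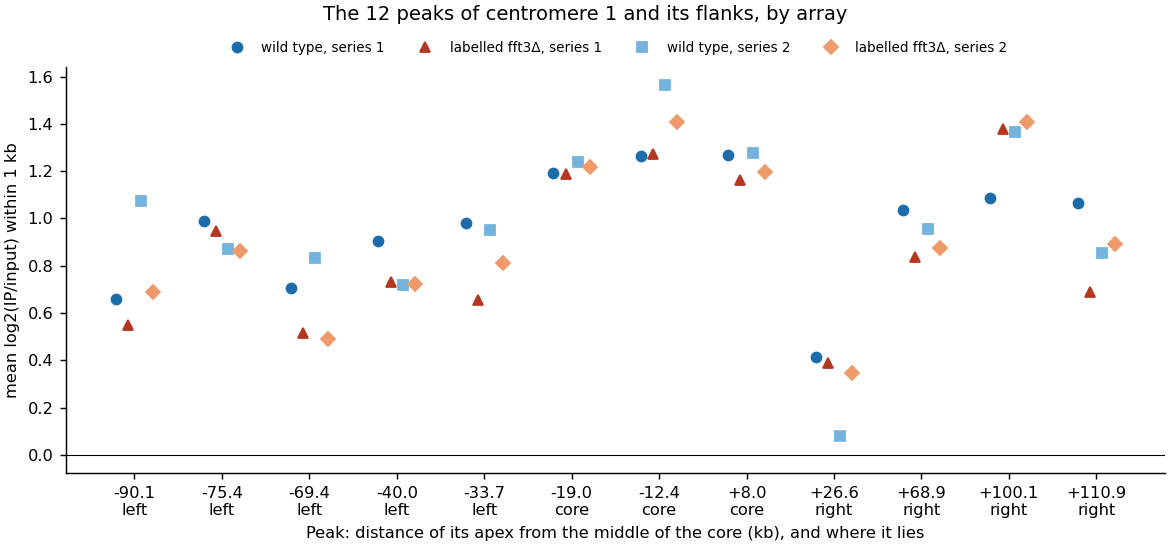
Mean log2 ratio of the probes within 1 kb of each of the 12 peaks, 1 symbol per array, in order along the chromosome and labelled by distance from the middle of the core. The 3 core peaks and the peak at +100.1 kb are the highest, and at most peaks the symbols of the 2 genotypes lie close together or overlap.

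Peak heights did not separate the genotypes after adjustment. Arrays of the groups did not overlap at 3705600, 3741300, 3783000 and 3843900, all lower in labelled fft3Δ, and at 3875100, which was higher. The share of such peaks over the array was not computed. Of all 2 kb windows 34.7% did not overlap, so such a split alone does not set a peak apart. Of 300 peaks with a value on all arrays, 0 (0%) were called between genotypes by limma at an adjusted p of 0.05, and 30 (10%) had an unadjusted p below 0.05, of which 0 lay in the region. Adjusted p for the 12 peaks ran from 0.53 at 3705600 to 0.97 at 3756000. The 12 had a median difference, labelled fft3Δ minus wild type, of -0.09, against -0.08 over all 300, and 10 of them were below 0, where 199 of all 300 were. With the series as a block, 6 peaks were called over the array, and 0 of them lay in the region.

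The core was higher in labelled fft3Δ than in wild type within both series, but by less than arrays of a group differed in places. Wild type had a mean of 0.57 ± 0.08 and labelled fft3Δ one of 0.72 ± 0.13 (SD, n = 2 each). The gap of 0.15 was 0.18 within series 1 and 0.12 within series 2. The groups overlapped, since wild-type array 1 and labelled fft3Δ array 2 both gave 0.63. An exact permutation test of 2 arrays against 2 cannot go below p = 0.333. For the flanks the gap was -0.02 (0.01 within series 1, -0.05 within series 2).

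Where in the core the difference lay was not the same in the 2 series. In series 1, whose arrays share a slide, labelled fft3Δ was higher by 0.32 in the left edge, 0.29 in the left arm, 0.25 in the centre and 0.27 in the right arm, and the right edge differed by -0.04. In series 2 the differences were -0.21, 0.01, 0.46, 0.04 and 0.01 in the same order, so the centre accounted for most of the series 2 difference. There the input of wild-type array 2 was 0.04 against -1.02 to -0.73 on the others, and the Cy5 signal was -0.15 on it against -0.41 on labelled fft3Δ array 2, the opposite order to the ratio. The part of that input in the series 2 difference was not tested. Leaving out wild-type array 2 brought the difference of the centre to 0.08 and that of the core to 0.09. Leaving out labelled fft3Δ array 1 gave 0.18 and 0.06, wild-type array 1 0.63 and 0.21, and labelled fft3Δ array 2 0.53 and 0.24.

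By kind of probe, the core's difference was largest over probes with an f, but kind of probe went in part with place. The 59 f probes of the core differed by 0.33 between genotypes (0.32 within series 1, 0.34 within series 2). Its 38 m probes differed by 0.07 (0.21 and -0.06). The 62 others had 0.49, 0.52, 0.46 and 0.44 on the 4 arrays and differed by 0.006. Outside the 3 cores, the 921 f probes also differed, by 0.10 (0.13 and 0.06), and the 312 m probes by -0.17 (0.02 and -0.36). Of those 62 in the core, none lay in the arms and 4 lay in the centre, which differed by 0.20 (0.001 and 0.39). Most of the rest lay in the right edge, where 2 of 49 probes had an f. Leaving out f and m probes thus removed the arms and most of the centre. Within the arms alone, the 20 f probes differed by 0.30 (0.42 and 0.17) and the 38 m probes by 0.07 (0.21 and -0.06). In the centre the 33 f probes differed by 0.37 (0.28 and 0.47). In the arms of centromeres 2 and 3, f probes differed by 0.35 and 0.15 and m probes by 0.06 and -0.02. Kind of probe and place could thus be set apart only within the arms, and the cause was not tested. With normexp the core differed by 0.046, with centring on the mode by 0.078 and with the Cy5 signal alone by 0.30, and the gap in its input was -0.05 within series 1 and 0.27 within series 2.

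Tested as a bin against its surroundings, the core's excess was larger in labelled fft3Δ by 0.16 ± 0.07 (SE), which did not pass over all bins (adjusted p = 0.86, limma). None of the 237 bins was called (0%), and 5, this one among them, had an unadjusted p below 0.05. The difference of the core ranked 2 among all bins, after the bin of the centromere on chromosome 2. The 2 bins that overlap the core of centromere 3 ranked 3 and 5. The core of centromere 2 was also higher in labelled fft3Δ, by 0.41 within series 1 and 0.05 within series 2. That of centromere 3 was higher by 0.24 and 0.03. For the centre minus its neighbouring bins the difference was 0.21 ± 0.13 (SE, adjusted p = 0.99, limma), with -0.02 in series 1 and 0.43 in series 2, and was -0.10 without wild-type array 2. Of these bins, 0 of 1121 (0%) were called and 26 had an unadjusted p below 0.05.

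With genotype as the only term, no 2 kb window of the region separated the genotypes after adjustment. Over the array 0 of 6214 windows (0%) were called by limma, and 305 (4.91%) had an unadjusted p below 0.05. Of the 125 windows of the region 8 did, with 4 higher and 4 lower in labelled fft3Δ, and 5 of the 8 were in the right flank. The arrays of both groups did not overlap in 41 of the 125 windows (32.8%), close to the 34.7% over all windows. Without wild-type array 1, 42 windows were called over the array and 0 in the region. By part, 6 of 25 core windows, 15 of 50 left-flank windows and 20 of 50 right-flank windows did not overlap. With the series as a block, the window at 3868000 passed, as given below.

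The window with the largest fall by moderated t started at 3868000, within the broad rise of the right flank. Its ratio was 1.42 and 1.66 on wild-type arrays 1 and 2, and 0.98 and 1.02 on labelled fft3Δ arrays 1 and 2. The groups did not overlap, and the difference was -0.54 ± 0.14 (SE; adjusted p = 0.88, limma), with -0.44 in series 1 and -0.64 in series 2. With the series as a block it passed (adjusted p = 0.035), as the only window of the region among 111 called over the array. Its Cy5 signal was 0.57 higher in labelled fft3Δ and its input 1.08 higher. By series, the gap in Cy5 signal was -0.24 for series 1 and 1.39 for series 2, and that in input 0.18 and 1.97. In series 1 the IP was lower and the input higher, whereas in series 2 both were higher on labelled fft3Δ array 2, the input by more. Wild-type array 2 also had 2 of the window's spots left out, and without that array the difference was -0.42 (adjusted p = 0.999, limma).

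The window with the largest rise by moderated t started at 3872000, with 1 window between the 2. It had 0.66 and 0.93 in wild type and 1.30 and 1.13 in labelled fft3Δ, a difference of 0.42 ± 0.15 (SE; adjusted p = 0.88, limma), with 0.63 in series 1 and 0.21 in series 2. Without wild-type array 2 it was 0.55 (adjusted p = 0.999, limma). At 3872000 the groups did not overlap either. A few other windows of the region had slightly larger differences with a lower moderated t, such as 0.45 at 3774000 in the centre and 0.44 at 3736000 in the left flank. The fall and the rise belong to one cluster. On both wild-type arrays the smoothed ratio was high at 3868800 (1.43 and 1.75) and at 3875100 (1.40 and 1.59). Between them it fell to 0.54 at 3871200 on wild-type array 1 and 0.89 at 3870900 on wild-type array 2, rose again to 1.25 at 3872100 and 1.42 at 3872700, and dipped at 3873300 (0.18 and 0.39). On the labelled fft3Δ arrays the first place had 0.91 and 1.05, the dip 1.44 and 0.90, and the summit at 3875100 1.59 and 1.78. Peaks called on the wild-type arrays alone included 3868800 and those called on the labelled fft3Δ arrays alone did not. On the latter its smoothed height was still 0.98, above a peak called there at 0.76. Higher points lay within the 5 kb of the rule, as at 3872100 (1.12 and 1.40). The region held 16 of 380 wild-type peaks (4.21%) and 11 of 293 labelled fft3Δ peaks (3.75%), a similar share of both. The further wild-type peaks lay in other places, such as 3725400, 3823200 and 3899400. This cluster was picked out after its values were seen, and neither window passed the test with genotype as the only term.

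**Figure D4:**
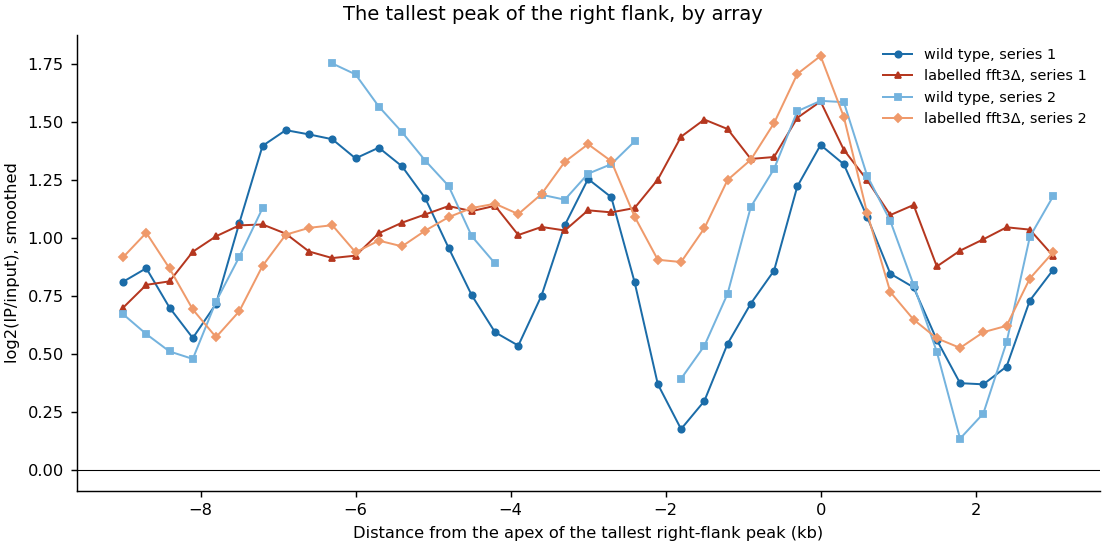
Log2 ratio of IP over input, averaged over probes within 500 bp, around the peak at 3875100, with 1 line per array and gaps where spots of wild-type array 2 were left out. Both wild-type lines are high about 6 to 7 kb to the left, have a smaller rise about 3 kb to the left and dip about 2 kb to the left, where the labelled fft3Δ lines are flatter.

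The other windows named by moderated t lay at the far end of the right flank and at the border of the centre with the right arm. The window at 3898000 had 0.60 and 0.94 in wild type and 0.20 and 0.40 in labelled fft3Δ, and the one at 3896000 had 0.65 and 0.58 against 0.19 and 0.34. Both were lower in labelled fft3Δ, with differences of -0.47 and -0.34. Rises were found at 3892000, with 0.13 and 0.03 in wild type and 0.69 and 0.26 in labelled fft3Δ, and at 3776000, which takes in the end of the centre and 1 m probe of the right arm, with 0.31 and -0.08 against 0.73 and 0.35. The groups did not overlap at any of the 4, as was so for 34.7% of all windows. None of the 4 passed after adjustment (adjusted p = 0.88 each, limma).

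Set beside centromeres 2 and 3, centromere 1 had the highest flanks. Its flanks exceeded those of centromere 2 by 0.20 to 0.25 and those of centromere 3 by 0.32 to 0.36 on the 4 arrays. The cores did not follow the same order: that of centromere 1 differed from that of centromere 3 by -0.17 to -0.34, and was higher than that of centromere 2 on 2 of 4. Of the core probes, 23.9% had an m at centromere 1, 22% at centromere 2 and 54.2% at centromere 3, and the part of that share in these differences was not tested. As a result the excess of core over flanks was smallest at centromere 1, with a mean of 0.25 against 0.48 and 0.84. No test across centromeres was run, since the 3 were measured on the same arrays.

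A centre lower than the arms was found at all 3 over all probes. The pooled arms of centromere 1 had a 4-array mean of 1.04 and those of centromere 3 one of 1.24, and on single arrays the arms of centromere 2 had 0.86, 1.27, 0.97 and 0.91. The centres, drawn by the same rule, had 4-array means of 0.25, 0.35 and 0.22. On each array every centre lay below its arms. Within f probes, the centre of centromere 3 lay below its arms on each array, at -0.42, -0.31, -0.69 and -0.42, whereas that of centromere 2 had -0.11, -0.29, 0.02 and 0.04. Labelled fft3Δ array 1 had the highest centre at each of the 3, with 0.60, 0.63 and 0.56, and wild-type array 2 the lowest, with -0.21, 0.20 and -0.04. Centromere 1 differed in its input: the centre's log2 input was -0.98, -1.02, 0.04 and -0.73, whereas at centromere 2 it was 0.09, -0.04, 0.15 and 0.14 and at centromere 3 0.03, -0.08, 0.19 and 0.15.

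**Figure D5:**
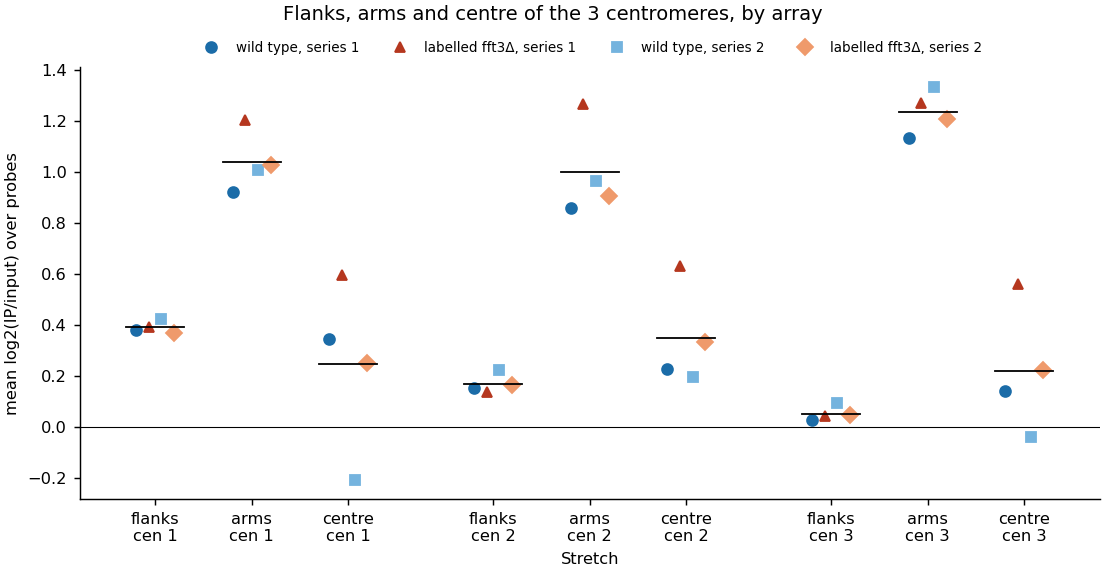
Mean log2 ratio of IP over input of the flanks, the pooled arms and the centre of each of the 3 centromeres, 1 symbol per array, with a line at the 4-array mean. Arms are highest and centres lower at all 3, and the flanks of centromere 1 lie above those of the other two.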

How the data were processed

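BrdU-immunoprecipitated and whole-cell extract DNA of 4 samples were hybridised to 2-colour Agilent arrays. The members and lists were chosen with earlier results of these data known. The deposited intensity values are the processed Cy5 and Cy3 signals of Agilent Feature Extraction (12.0, and 11.5 for wild-type array 2), background-subtracted and dye-normalized per the file headers, beside median signals. The deposited flag columns, of unit other, mark non-uniform spots, which were left out. The deposited series matrix holds the linear ratio, not centred, with column medians of 1.03, 0.99, 1.07 and 1.02. Per the file headers, the deposited log10 column is Cy5 over Cy3 and served to check the direction.

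From these, log2(Cy5/Cy3) had each array's median subtracted, without loess or quantile normalization. Probes were averaged over 2 kb windows with at least 3 probes per array, within 1 kb of peaks, and over bins, and each set was tested over the 3 chromosomes with limma 3.58.1 (R 4.3.3; two-sided, Benjamini-Hochberg, 0.05) with genotype as the only term. Region means got no test. Calls were tested on simulated data. Arrays of series 1 share a slide, and each series was read on a scanner of its own, so the series was also used as a block. Median Cy3 signal over local background was 18.1, 17.3, 217 and 55.5, and precision is limited by there being 2 arrays a group. The mean-signal column planned for normexp was not used, and median signals with an offset of 50 took its place.

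GC content of the reference (ASM294v3) followed the input best at a shift of -880 bp in the left flank (r = 0.24 over 333 probes, against -0.04 with no shift) and 4600 bp in the right (0.28 against 0.05). These maxima are weak, no position was converted, and positions are those of the probe names. The text names every peak of the region, the 3 highest and 3 lowest windows of the core and each flank, and the 3 windows that rose most and the 3 that fell most by moderated t. Alternatives were normexp, loess, the mode, Cy5 alone, flags, suffixes, the block, each array left out, other window, peak and region bounds, and the deposited ratios. Versions were 1.17.8 for data.table (reading) and 3.10.9 for matplotlib (plots).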

Additional observations from a re-analysis of the deposited data

How the results depend on the processing

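The mean of the 2 groups was 0.64 for the core, 0.39 for the flanks and 0.25 for their difference. The core level was 0.36 with loess, 0.38 with centring on the mode, 1.30 with Cy5 alone, 0.50 with probes without any suffix and 0.48 without f and m probes. The flanks gave 0.47 with normexp, 0.32 with loess, 0.13 with the mode and 0.45 with Cy5 alone. The excess of the core was 0.15 with normexp, 0.045 with loess, 0.85 with Cy5 alone, 0.11 without any suffix and 0.088 without f and m probes, and the bin of the core lost its call with loess (0.046). The genotype difference of the core (0.15) was 0.046 with normexp, 0.078 with the mode, 0.30 with Cy5 alone, 0.0038 without any suffix and 0.0055 without f and m probes. That of the flanks (-0.02) was -0.13 with normexp, -0.092 with the mode and, with the opposite sign, 0.068 with Cy5 alone. The input excess of the core (0.60) was 0.78 with normexp, 0.063 without any suffix, 0.11 without f and m probes and 0.40 with medians over probes. The causes were not tested. Moving the core's bounds by 5 kb or taking flanks of 50 kb kept these results within the spread between arrays.

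Calls between genotypes over the whole array went from 0 to 111 windows with the series as a block (1 in the region), and to 6 peaks with the block, 2 with loess, 5 with flagged spots kept, 5 without f and m probes and 4 for peaks found on the labelled fft3Δ arrays, with 0 called peaks in the region in each case. Leaving out 1 array at a time gave 0 to 42 called windows, the 42 without wild-type array 1. Arrays of a series share its number and scanner, and those of series 1 also a slide, and the deviations between series correlated over windows between the genotypes (r = 0.37, n = 6214). A threshold of 2 SDs left 3 peaks of the region in place of 12.

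Differences between genotypes changed sign for the windows at 3868000 (0.57) and 3898000 (0.11) with Cy5 alone, and for the peaks at 3684900 (0.25), 3699600 (0.33), 3705600 (0.078), 3735000 (0.042), 3756000 (0.62), 3762600 (0.85), 3783000 (0.59), 3801600 (-0.00092) and 3843900 (0.20) with Cy5 alone. The peak at 3875100 turned with normexp (-0.28) and the one at 3756000 with loess (0.0088). With 1 array left out, the peaks ranged from -0.086 to 0.033 at 3699600, -0.18 to 0.0098 at 3735000, -0.034 to 0.0091 at 3756000, -0.22 to 0.075 at 3762600 and -0.045 to 0.29 at 3801600. The centre minus its neighbours ranged from -0.095 to 0.51, passing only without wild-type array 1 (adjusted p = 0.0011, limma), and was -0.52 with Cy5 alone. None of these peaks passed in any setting. The tests rest on 2 arrays a group, and the narrower input of wild-type array 2 limits every value that uses it.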
